A study of Mus musculus with 2 samples.

Results

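Tenocytes, the fibroblasts of tendon and of its insertion into bone, were selected among single periosteal cells by their own transcripts. A cell was taken as a tenocyte when it held at least 2 unique molecular identifiers (UMIs, each one a captured mRNA molecule) of Tnmd, at least 2 of the 5 genes Fmod, Thbs4, Scx, Mkx, and Kera at 1 UMI or more, fewer than 10 UMIs of Col2a1, and none of Ptprc. Of 9169 cells that passed quality filters, 74 met this rule, 2 of 6276 in the library of replicate 1 (0.0319%, exact 95% binomial interval 0.00386% to 0.115%) and 72 of 2893 in that of replicate 2 (2.49%, 1.95% to 3.12%). The study profiled the periosteum, the thin sheath that covers bone, stripped from femurs and tibias of WT C57BL6 mice at 4 weeks of age, digested with collagenase, sorted on CD45, CD31, Ter-119, and the viability dye DAPI, and captured as 10x Genomics 3′ libraries. Its purpose was to ask whether stem cell markers of human periosteum, above all Lrp1, also mark mouse periosteal cells. Both libraries carry the same genotype, strain, age, and tissue, so there was no treated or mutant group, and how many mice each one pooled is not given in the sources used here.

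Several features of the libraries went against their labels. The sort was meant to remove blood cells, yet 1549 kept cells of library 1 and 543 of library 2 carried B cell transcripts (Cd79a, Cd79b, and Ptprc together). Although the genotype is given as WT, UMIs of the reporter sequences tdTomato and EGFP were present, and tdTomato was found in 32 of the 72 tenocytes of library 2 and in neither of the 2 of library 1. Among the 72 tenocytes, 30 held Xist without a Y-linked transcript, 18 held Y-linked transcripts without Xist, 3 held both, and 21 held neither, so cells of both sexes were pooled in that library. The libraries shared 8 cell barcodes, 7 of them among kept cells and none among tenocytes. Because 1 library held nearly all tenocytes, no test between samples was possible, and every interval given here covers counting error only.

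Tenocytes lay down and maintain parallel bundles of type I collagen that carry force from muscle to bone. The basic helix-loop-helix factor Scx and the homeobox factor Mkx direct their gene program, and the membrane protein tenomodulin (Tnmd) is its most widely used marker. Fibrils are then sized and joined by small leucine-rich proteoglycans such as fibromodulin (Fmod) and keratocan (Kera), by thrombospondins such as Thbs4, and by fibril-associated collagens. Tendon also changes along its length, from a junction with muscle, through a tensile midsubstance, to a fibrocartilage where it meets bone.

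Basic helix-loop-helix factors such as Scx recognize the E-box, CANNTG, a pattern for which a match on one strand is also a match on the other. The 250 bases before the RefSeq start of 4 genes on which the results below turn are shown so that the letters can be seen, with every CANNTG in capitals. Tnmd selected the cells, Fmod is a gene of the rule, and Chodl and Chad mark different sets of tenocytes described further on. All 4 genes had an entry in RefSeq on GRCm38.p6, and all 4 are read on the plus strand.
Tnmd, chrX:133850758-133851007: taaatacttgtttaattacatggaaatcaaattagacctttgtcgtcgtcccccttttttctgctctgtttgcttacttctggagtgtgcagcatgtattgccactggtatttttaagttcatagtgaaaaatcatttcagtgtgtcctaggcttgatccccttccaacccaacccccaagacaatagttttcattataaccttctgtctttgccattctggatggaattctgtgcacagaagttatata
Fmod, chr1:134037004-134037253: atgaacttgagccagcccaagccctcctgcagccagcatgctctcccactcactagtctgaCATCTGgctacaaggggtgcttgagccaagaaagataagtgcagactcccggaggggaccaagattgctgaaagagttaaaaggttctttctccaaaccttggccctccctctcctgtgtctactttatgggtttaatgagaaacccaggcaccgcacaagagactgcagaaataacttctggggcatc
Chodl, chr16:78930698-78930947: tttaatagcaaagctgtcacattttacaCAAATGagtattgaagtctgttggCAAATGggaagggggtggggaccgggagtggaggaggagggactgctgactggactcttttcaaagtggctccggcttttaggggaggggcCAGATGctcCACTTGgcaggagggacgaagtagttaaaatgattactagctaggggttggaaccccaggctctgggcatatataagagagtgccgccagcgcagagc
Chad, chr11:94564797-94565046: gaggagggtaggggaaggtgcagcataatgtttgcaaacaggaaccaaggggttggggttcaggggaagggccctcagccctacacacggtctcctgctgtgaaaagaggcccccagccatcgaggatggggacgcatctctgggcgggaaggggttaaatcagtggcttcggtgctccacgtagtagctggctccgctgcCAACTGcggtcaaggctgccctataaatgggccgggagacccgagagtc
The motif occurred 4 times before Chodl, 1 time each before Fmod and Chad, and not in the window of Tnmd. Of 32851 windows of the same length in RefSeq, 66.2% held at least 1 match and 12.2% held 3 or more. These matches describe the letters only and say nothing of whether a factor binds there.

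The genes that selected the cells are given first, as a description. Tnmd ranged from 2 to 298 UMIs per tenocyte of library 2, with a median of 25. Thbs4 was present in 94.4% of the 72 cells, Fmod in 93.1%, Scx in 79.2%, Kera in 75% and Mkx in 36.1%, with medians of 20, 16, 3.5, 5, and 0 UMIs. The genes of the rule mostly occurred together: 22 cells held all 5 of them, 23 held 4, 16 held 3, and 11 held the minimum of 2. Scx and Mkx, the transcription factors of the rule, were both present in 23 cells, Scx alone in 34, Mkx alone in 3, and neither in 12.

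Close to the limits the cells differed less sharply. The 10 tenocytes with 2 or 3 Tnmd UMIs had a median of 6.5 Fmod UMIs, and 7 cells left out because they held 1 Tnmd UMI had a median of 10. A further 9 cells with enough Tnmd held 1 of the 5 genes and 7 held none, with medians of 4 and 3 Tnmd UMIs. The limit on Col2a1, the main collagen of cartilage, left out 4 cells, and these held 125 to 600 Col2a1 UMIs, whereas the tenocytes held at most 9. The limit on Ptprc (CD45) left out 1 cell, with 50 Tnmd UMIs.

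The tenocytes of library 2 held 692172 UMIs in all, with a median of 9886 per cell (1081 to 20285) and a median of 2756 genes. They were compared with 293 periosteal fibroblasts of the same library, which held 2799413 UMIs and a median of 9124 per cell. Those fibroblasts had at least 4 of the 7 genes Pdgfra, Clec3b, Mfap5, Gas1, Dcn, Cd34, and Tnxb and no Tnmd or Ptprc. The groups were not opposites, since 44 of the 72 tenocytes (61.1%) also met the 4-of-7 condition, and Gas1 was present in 94.4% of tenocytes and 88.4% of fibroblasts. By contrast Pdgfra was present in 34.7% and 83.3%, and Cd34 in 38.9% and 89.4%, respectively. UMIs were summed over the cells of a group and given as CPM, counts scaled to a common total; 3′ UMI counts need no correction for transcript length.

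The label was then checked against genes outside the rule. All 2114 cells of library 2 without Ptprc were clustered with the 15 genes of both selection rules left out. At a resolution of 0.8, 61 of the 72 tenocytes (84.7%) fell into 1 cluster of 112 cells, of which they made up 54.5%. Of the other 51 cells in it, 9 held Tnmd and 16 met the fibroblast rule. At resolutions of 0.4 and 1.2 the leading cluster held 60 of the 72, among 175 and 98 cells. The cells called tenocytes were thus mostly found together without the genes that selected them, although the cluster was not made of them alone. Clusters use the same cells, so these counts describe them and test nothing.

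Markers of other cell types were read beside their levels in fibroblasts and B cells. The 8 muscle genes summed to 39 CPM, against 95 CPM in fibroblasts and 505 CPM in B cells, a cell type that should lack them, and Mylpf was the most abundant at 10.1 CPM. The 5 endothelial genes summed to 10.1 CPM, against 2.5 CPM in fibroblasts and 27.1 CPM in B cells, with Emcn, Kdr, and Cldn5 at 0, and the 5 Schwann cell genes to 13 CPM, against 45.4 and 16.4 CPM, with Sox10 at 0. Mural genes were higher in tenocytes as a sum, at 301 CPM against 215 CPM in fibroblasts and 0.996 CPM in B cells. Of these, Tagln (118 and 24.3 CPM) and Acta2 (116 and 29.6 CPM), genes of the contractile cytoskeleton, were higher in tenocytes, Pdgfrb was at 65 and 95 CPM, and Rgs5 and Myh11 were at 0. The 9 hematopoietic genes summed to 235 CPM in tenocytes, 4391 CPM in fibroblasts, and 10788 CPM in B cells, with Hbb-bs the most abundant and Cd79a and Cd3e at 0 in tenocytes. Selection fixed part of these sums, since tenocytes and fibroblasts had to lack Ptprc and B cells had to hold Cd79a, Cd79b, and Ptprc. Lyz2, a myeloid gene of that list, went the other way, at 40.5 and 6.07 CPM, 6.66-fold higher in tenocytes (1.82 with tenocytes limited to those without Col2a1). The osteoblast genes Alpl, Dmp1, Phex, Ifitm5, and Mepe were at 0, which by a limit of 3 UMIs allows up to 4.33 CPM each, while Spp1 made up most of the 3167 CPM of that list, which summed to 397 CPM in fibroblasts. Bglap and Bglap2 of that list had log2 ratios to fibroblasts of -4.26 and -4.16, but were under 4-fold lower in 5 and 4 of 17 alternatives. The 4 genes of adipogenic stroma summed to 282 CPM, against 598 CPM in fibroblasts, with Cxcl12 the most abundant. Lepr was 4.36-fold and Tagln 4.88-fold higher in tenocytes, but both were under 4-fold in some alternatives (7 and 4 of 17). The lowest ratio of Lepr was 2.52, without cells holding 2 or more UMIs of Hbb-bs, Cd79a, Acta1, or S100a8. That of Tagln was 0.596, among cells with Y-linked UMIs and no Xist. Single cells did hold foreign transcripts: all 18 Adipoq UMIs and all 6 Cdh5 UMIs came from 1 cell each, and 1 cell held 64.3% of the 28 Lyz2 UMIs. Without cells holding 2 or more UMIs of Hbb-bs, Cd79a, Acta1, or S100a8 in either group, 61 of the 73 genes counted as higher and 87 of the 128 counted as lower below were still past 4-fold; doublets were not removed.

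Tenocytes were then compared with fibroblasts of the same library. Among 5352 genes at a mean of 20 CPM or more in the 2 groups, outside the rule, 73 were at least 4-fold higher in tenocytes (1.36% of the genes) and 128 were at least 4-fold lower (2.39%). The interval of the ratio lay wholly beyond 4-fold for 45 and 52 of these. The median log2 ratio over all 5352 genes was -0.11. Other choices of cells or scaling, 17 in all, moved single genes across the threshold: 22 of the 39 higher and 7 of the 30 lower genes that the rules for naming genes took were past 4-fold in every alternative that gave a fold. For 8 of the higher genes 1 cell held most of the UMIs, and 54 of the higher genes had a UMI in at least 20% of tenocytes.

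**Figure D1:**
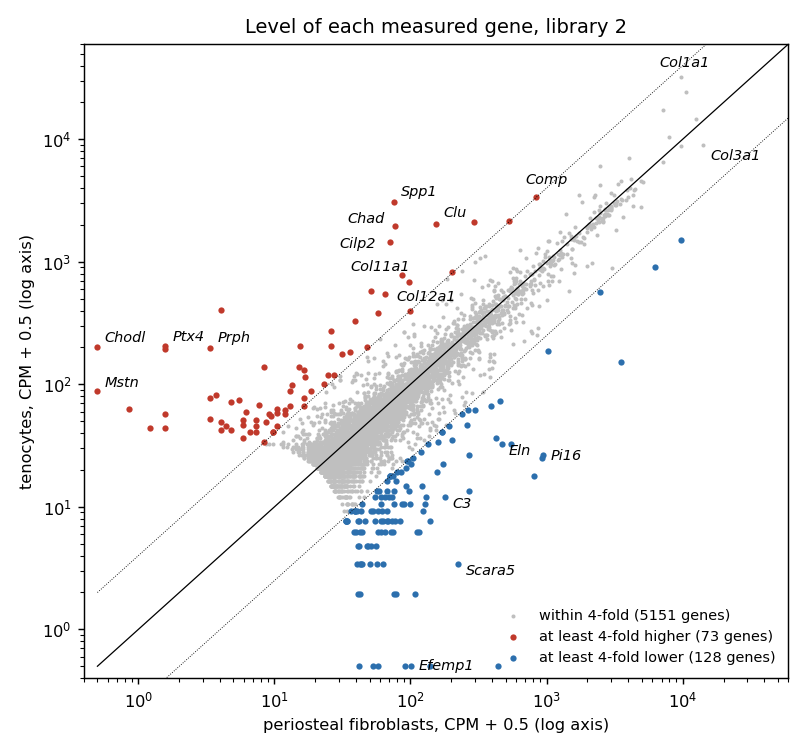
Level of each of 5352 genes in periosteal fibroblasts (horizontal) and tenocytes (vertical) of library 2, in CPM plus 0.5 on log axes, with dotted lines at 4-fold. The 73 genes above the upper line (red) include Chodl, Ptx4, Chad, and Cilp2, and the 128 below the lower line (blue) include Scara5, Pi16, and Efemp1.

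Cilp2, a cartilage intermediate layer protein of the extracellular matrix (chr8:69880369-69887687, GRCm38, minus strand), was present in most tenocytes and few fibroblasts. Per 10000 UMIs of a cell, its level in the 72 tenocytes ranged from 0 to 74.1 with a median of 9, and in the fibroblasts from 0 to 76.8 with a median of 0. It was present in 86.1% of tenocytes and 7.17% of fibroblasts, and the ranges overlapped through the few fibroblasts that held it. With each cell thinned to 1000 UMIs, which left out 7 of the 293 fibroblasts and no tenocyte, the shares expected were 56.9% and 3.34%. Summed over cells, Cilp2 was at 1443 CPM (1355 to 1536) in tenocytes and 69.7 CPM (60.2 to 80.2) in fibroblasts, a ratio of 20.7 (17.8 to 24.3). Chondrocytes of the library had 116 CPM, osteoblasts 3.67 CPM, and B cells none. Fibin, a secreted factor of limb buds, had a median of 2.95 per 10000 in tenocytes (0 to 44), and its ratio was 11.4 (9.4 to 13.9). Against fibroblasts free of Pi16 and Dpp4 the ratios of Cilp2 and Fibin were 9.26 and 5.65, their lowest over 17 alternatives. Chondrocytes also held Fibin, at 303 CPM to the 575 CPM of tenocytes. Cpxm2, a carboxypeptidase-like secreted protein, was present in 58.3% of tenocytes and 8.19% of fibroblasts, at 205 and 15 CPM.

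Other genes of large ratio were present in a minority of tenocytes. Ptx4, which encodes a pentraxin, was at 205 CPM (173 to 242) in tenocytes and 1.07 CPM in fibroblasts, a ratio of 191 (64.2 to 939), yet 36.1% of tenocytes held it. Chodl, which encodes the membrane lectin chondrolectin, was at 201 CPM in 23.6% of tenocytes and at 0 of 2799413 UMIs in fibroblasts, at least 187-fold higher when fibroblasts are set at 3 UMIs. Prph, an intermediate filament protein best known from peripheral neurons, was 69.8-fold higher (34.4 to 165) and present in 29.2%. All 3 genes were at 0 in B cells, and Ptx4 and Chodl were also at 0 in chondrocytes and osteoblasts. Insc, an adaptor in spindle orientation, was 52.6-fold higher (16.7 to 266), and Scube2, Atp6v0a4, Gas2, and Uts2r were 40.4-, 25.2-, 16.5-, and 11.4-fold higher, each in 20.8% to 31.9% of tenocytes. Over the alternatives their lowest ratios were 7.33 for Insc, 8.51 for Scube2, 13.4 for Atp6v0a4, 6.92 for Gas2, and 4.96 for Uts2r, and those of Ptx4, Chodl, and Prph 39.2, 46, and 37.7. Spp1 (osteopontin), Chad (chondroadherin), and Clu (clusterin) were 40.9-, 25.6-, and 13.2-fold higher, and the highest cell of each gene held 43%, 31.5%, and 31.4% of its UMIs. These folds moved with the selection, Clu from 1.89 with at least 4 Tnmd UMIs to 90.2, Chad from 4.66 to 693, and Spp1 from 7.94 to 375 over the alternatives. The highest Spp1 cell had 2 Tnmd UMIs, 1 each of Fmod and Thbs4, and none of Scx, Mkx, or Kera, and per 10000 UMIs it held 892 of Spp1, 315 of Clu, 273 of Col10a1, and 5.83 of Col1a1, the lowest Col1a1 level of any tenocyte. It was also the highest cell for Acan, Col10a1, and Mmp13.

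**Figure D2:**
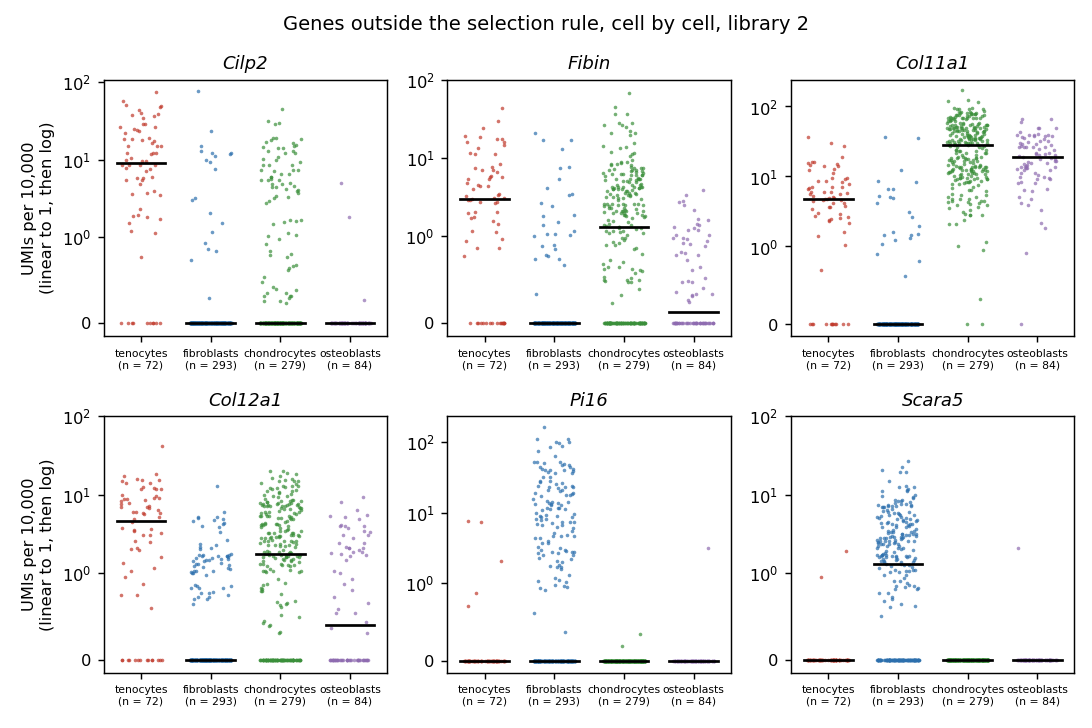
UMIs per 10000 in each cell of library 2 for 6 genes that the rule did not use, in 72 tenocytes, 293 fibroblasts, 279 chondrocytes, and 84 osteoblasts; the axis is linear up to 1 and logarithmic above, and black lines are medians. Cilp2, Fibin, Col11a1, and Col12a1 have medians above 0 in tenocytes and of 0 in fibroblasts, Scara5 shows the reverse, and Pi16 has a median of 0 in all 4 groups with its high cells among fibroblasts.

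The genes that were lowest in tenocytes included markers of stromal progenitors. Scara5, a ferritin receptor of stromal progenitors, was present in 61.8% of fibroblasts and 2.78% of tenocytes, at 224 CPM (207 to 242) and 2.89 CPM (0.35 to 10.4). Pi16, a marker of universal fibroblast progenitors, was at 944 CPM in fibroblasts and 26 CPM in tenocytes, 36.3-fold lower (22.9 to 61.3), and 1 tenocyte held 55.6% of its 18 UMIs. Efemp1 (fibulin-3) had 282 UMIs in fibroblasts and none in tenocytes, at least 23.2-fold lower. Elastin (Eln) was at 468 CPM in fibroblasts and 31.8 CPM in tenocytes, 14.7-fold lower (9.68 to 23.6), and the transcription factor Osr1 at 123 and 8.67 CPM, 14.2-fold lower. Gdf10, complement C3, and Steap4 were 20-, 15.5-, and 14.3-fold lower, with all 8 C3 UMIs of tenocytes in 1 cell, and Steap4 was 3.89- to 18.6-fold lower over the alternatives. The hemoglobin genes Hbb-bs and Hbb-bt were 23.3- and 37.5-fold lower, but they were present in similar shares of both groups (70.8% and 68.9% for Hbb-bs). Among cells with Y-linked UMIs and no Xist the ratios were 0.904 for Hbb-bs and 2.06 for Hbb-bt, and among cells with Xist and no Y-linked UMIs 0.313 and 0.266; near-identical copies such as these can share reads.

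The 10 most abundant non-mitochondrial transcripts were Col1a1, Sparc, Dcn, Col1a2, Gm42418, Malat1, Col3a1, S100a6, Cst3, and Crip1, in that order. The noncoding RNAs Gm42418 and Malat1 were at 14524 and 10367 CPM, and S100a6, Cst3, and Crip1 at 8862, 6991, and 6501 CPM, with ratios to fibroblasts from 0.902 to 1.73 for these 5. Dcn, a gene of the fibroblast rule, was at 18614 CPM. Col1a1 stood at 32029.6 CPM in tenocytes, with 5.83 to 1415 UMIs per 10000 in single cells and a median of 240.4, and was 3.3-fold higher than in fibroblasts (3.24 to 3.36). Col1a2 was at 17305 CPM and 2.39-fold higher, and Sparc, a collagen-binding calcium protein, was at 24443 CPM and 2.31-fold higher. Col3a1, the collagen of thin pliable fibrils, was at 8965 CPM in tenocytes and 14110.1 CPM in fibroblasts, a ratio of 0.635 (0.618 to 0.653). Osteoblasts had still more Col1a1, at 110619.8 CPM. Col1a1 was therefore above Col3a1 in tenocytes, while in fibroblasts the levels of Col3a1 exceeded those of Col1a1, at 9697 CPM.

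Of 17 measured fibrillar and fibril-associated collagens, 3 were at least 4-fold higher and 1 was at least 4-fold lower, beside 1.36% and 2.39% of all measured genes. The median log2 ratio was 0.61, beside -0.11 over all genes. Col12a1, which decorates type I fibrils under load, was at 548 CPM and 8.42-fold higher (7.04 to 10.1). Col11a1, which nucleates thin fibrils, was at 682 CPM and 7.07-fold higher (6.08 to 8.24), and present in 83.3% of tenocytes and 8.19% of fibroblasts. Chondrocytes and osteoblasts had more of it, at 4018 and 2112 CPM, and its ratio was 2 with both libraries summed. Col11a2 was 4.29-fold higher (1.47 with both libraries summed and 1.68 with tenocytes limited to those without Col2a1) and Col5a3 was 4.25-fold lower (3.41 at the least over the alternatives), while Col5a1 (ratio 0.697), Col5a2 (1.12), and Col14a1 (0.481) lay within 4-fold. Enzymes that process and crosslink collagen did not reach the threshold in either direction for any of 24 measured genes, with a median log2 ratio of 0.15; Lox and Plod2, which form and prepare crosslinks, had ratios of 3.02 (2.51 to 3.61) and 3 (2.47 to 3.64), and of 1.98 and 2.4 with at least 4 Tnmd UMIs.

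Among 26 matricellular and adhesive matrix genes, 8 were at least 4-fold higher, 2 were at least 4-fold lower, and the median log2 ratio was 0.61. The shares over all measured genes were 1.36% and 2.39%. Comp, the cartilage oligomeric matrix protein that binds collagen fibrils, had a median of 14.6 per 10000 in tenocytes (0 to 234) and of 0 in fibroblasts (0 to 134), and summed to 3407 and 839.8 CPM, a ratio of 4.06 (3.83 to 4.3). That ratio was under 4 in 7 of the 17 alternatives, at 2.57 with at least 4 Tnmd UMIs and 2.28 against fibroblasts free of Pi16 and Dpp4. Tenascin C (Tnc), an anti-adhesive protein of loaded tissue, was 8.5-fold higher (6.74 to 10.8), and Ccn4, Thbs1, Cilp, and Thbs2 were 7.05-, 6.66-, 4.07-, and 4.02-fold higher. Cilp was under 4-fold in 7 alternatives, at 2.54 with at least 4 Tnmd UMIs and 1.97 without cells holding 2 or more UMIs of Hbb-bs, Cd79a, Acta1, or S100a8. Thbs2 was under 4-fold in 5, down to 3.67, and Ccn4 in 1, at 3.05 with both libraries summed. Fibrillin-2 (Fbn2), the fibrillin of developing tissue, was 13.8-fold higher (6.64 to 31.2), while fibrillin-1 (Fbn1) was 5.43-fold lower (4.55 to 6.52), though 1.92-fold lower than in fibroblasts free of Pi16 and Dpp4. Eln, described above, was the other lower gene of the list.

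Of 10 measured small leucine-rich proteoglycans outside the rule, Chad was at least 4-fold higher and Epyc at least 4-fold lower, the latter with its 6 UMIs in 1 tenocyte and 1.17-fold lower among cells with Xist and no Y-linked UMIs. The median log2 ratio was 0.75, and over all measured genes 1.36% were at least 4-fold higher and 2.39% at least 4-fold lower. Prelp, an anchor between collagen and basement membrane, had a ratio of 3.27 (2.97 to 3.61), Ogn of 1.84, Bgn of 1.69, Aspn of 0.616, and Lum of 0.472.

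None of 11 genes of lubricated surfaces and sheath-like fibroblasts was at least 4-fold higher and 6 were at least 4-fold lower, against 1.36% and 2.39% of all measured genes. Their median log2 ratio was -2.08. Pi16, Dpp4, Cd55, Ly6a, and Has1 were lower by 36.3-, 5.59-, 4.92-, 4.36-, and 4.23-fold. Has1 was under 4-fold in 8 of the 17 alternatives (1.68 at the least), Ly6a in 5 (3.42), and Cd55 in 3 (2.61). Prg4 (lubricin) was at 899 CPM in tenocytes and 6289.9 CPM in fibroblasts, 7-fold lower, although it was present in 48.6% of tenocytes and 31.7% of fibroblasts. A few fibroblasts with up to 2556 Prg4 UMIs per 10000 set that level, and with fibroblasts limited to at least 6 of the 7 genes the ratio was 1.16. S100a4, a calcium-binding protein of the list, was at 3531 CPM in tenocytes and 2256 CPM in fibroblasts.

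**Figure D3:**
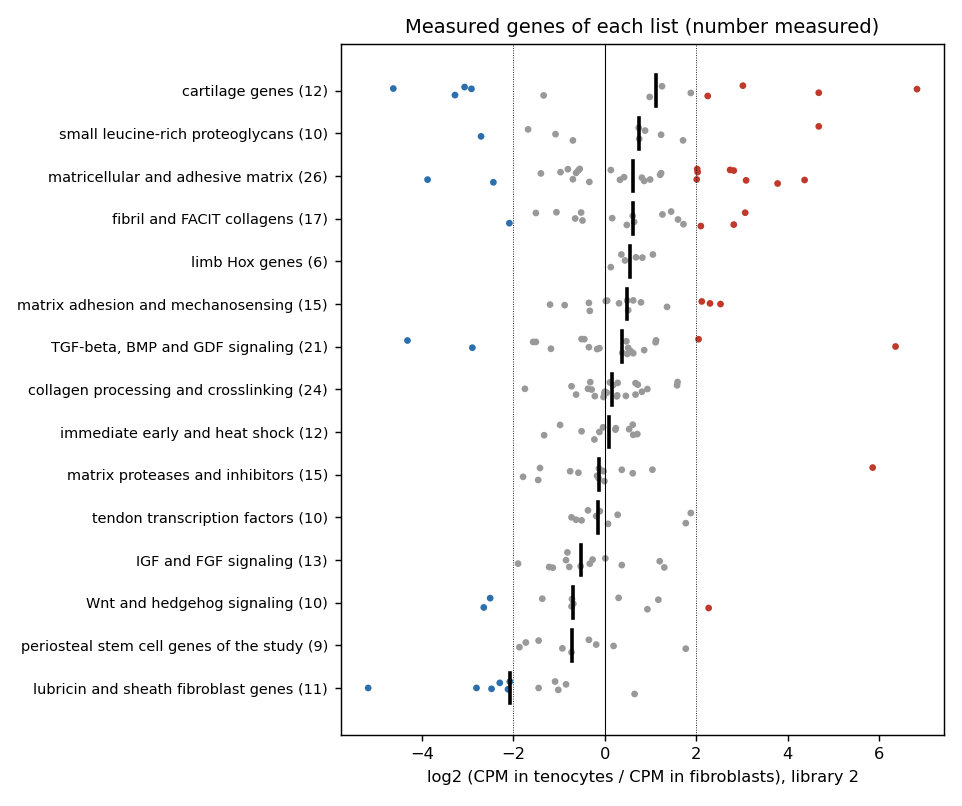
Log2 ratio of CPM in tenocytes to CPM in fibroblasts of library 2, for each measured gene of 15 lists with at least 5 measured genes (dots; numbers measured in brackets), with thick lines at the medians and dotted lines at 4-fold. Cartilage genes lie on both sides, and 9 of the 11 lubricin and sheath fibroblast genes lie at a log2 ratio of -1 or less.

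Of 12 measured cartilage genes outside the rule, Acan, Matn4, Chad, and Col10a1 were at least 4-fold higher. Col9a1, Col9a3, Snorc, and Cytl1 were at least 4-fold lower, and the median log2 ratio was 1.11. Of all measured genes, 1.36% were that much higher and 2.39% that much lower. Col2a1 was limited in tenocytes and not in fibroblasts, of which 9.22% held it at up to 305 per 10000, and its part in the lower genes was not tested. Without cells holding 2 or more UMIs of Hbb-bs, Cd79a, Acta1, or S100a8, the ratio was 2.4 for Col9a3, 0.838 for Snorc, and 0.986 for Cytl1, and without the highest cell of each group that of Col9a1 was 0.674. Matn4 was at 1.68 among cells with Y-linked UMIs and no Xist, and Acan at 3.36 without reporter cells. Aggrecan (Acan), the large proteoglycan of cartilage, was at 130 CPM in tenocytes and 16.1 CPM in fibroblasts, 8.09-fold higher (5.6 to 11.8), against 2357 CPM in chondrocytes. Sox9, the factor that drives cartilage formation, had a ratio of 3.68 (2.55 to 5.3), and of 2.17 with at least 4 Tnmd UMIs. Col10a1, the collagen of hypertrophic chondrocytes, came to 99.6% from 1 tenocyte, the highest Spp1 cell described above, and its ratio of 114 could not be given without the highest cell of each group. Matn1 and Fgfr3 were at 0 in tenocytes.

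Signaling genes were read against the shares of all genes that were at least 4-fold higher (1.36%) or lower (2.39%). Of 21 TGF-beta, BMP, and GDF genes (median log2 ratio 0.38), Inhba and Mstn were at least 4-fold higher and Gdf10 and Fst at least 4-fold lower; the ratio of Inhba, 4.13, was under 4 in 8 of the 17 alternatives, at 2.55 with at least 4 Tnmd UMIs. Mstn (myostatin), a secreted growth factor best known from muscle, had 61 UMIs in 13.9% of tenocytes and none in fibroblasts, chondrocytes, osteoblasts, or B cells, at least 82.2-fold higher than in fibroblasts, with 39.3% of its UMIs in 1 cell. Follistatin (Fst), which binds myostatin and activins, was 7.45-fold lower (3.55 to 18.8), at 10.1 and 75.4 CPM. Of 10 Wnt and hedgehog genes (median log2 ratio -0.71), the Wnt inhibitor Wif1 was 4.84-fold higher (2.15 against fibroblasts free of Pi16 and Dpp4), and the Wnt-binding proteins Sfrp4 and Sfrp1 were 6.27- and 5.69-fold lower (3.52 and 3.07 at the least over the alternatives). No gene of 13 in IGF and FGF signaling (median -0.53) passed 4-fold; Igfbp7, the most abundant of them, was at 6055 and 2454 CPM.

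Among 15 genes of matrix adhesion and mechanosensing, the collagen-binding integrins Itga1 and Itga2 and the mechanically gated channel Piezo2 were 5.78-, 4.36-, and 4.93-fold higher, and none was at least 4-fold lower (median log2 ratio 0.49). Itga2 and Piezo2 were at 3.83 and 2.3 among cells with Xist and no Y-linked UMIs. For this list and those below, the shares of all measured genes past 4-fold were 1.36% higher and 2.39% lower. Of 15 matrix proteases and inhibitors (median -0.13), Mmp13 alone was at least 4-fold higher, with its 43 UMIs in 2.78% of tenocytes. No tendon transcription factor outside the rule passed 4-fold among 10 measured (median -0.15), with Egr1 at 260.1 and 248 CPM. The limb patterning genes gave the same count, 0 of 6 measured, of which 5 were Hox genes and the other was Pitx1 (median 0.56). None of 12 immediate early and heat shock genes, which rise when tissue is digested, passed 4-fold either (median 0.09), with Fos at 1491 and 1034 CPM. Cell cycle genes were sparse: Mki67, Cdk1, Ccnb1, and Ccna2 had no UMI in tenocytes, and the list summed to 86.7 CPM, against 201 CPM in fibroblasts and 2678 CPM in B cells.

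The stem cell markers that the study was about were mostly at or below the fibroblast level in tenocytes. Of 9 measured genes outside the rule, none was at least 4-fold higher or lower, and the median log2 ratio was -0.73. Lrp1, an endocytic receptor, was present in 93.1% of tenocytes and 94.5% of fibroblasts, at 464 CPM (414 to 517) and 767 CPM (735 to 800.1). Anpep (CD13), a membrane peptidase, was at 41.9 and 153 CPM and Pdpn (podoplanin) at 41.9 and 139 CPM, 3.65-fold (2.5 to 5.52) and 3.31-fold (2.27 to 5.01) lower. Nt5e (CD73) was the main exception, at 63.6 CPM in tenocytes and 18.6 CPM in fibroblasts (ratio 3.42, 2.24 to 5.21). Its ratio was 1.61 against fibroblasts free of Pi16 and Dpp4. Sox4 was also above the fibroblast level, at a log2 ratio of 0.19. Prrx1, a limb mesenchyme factor, was at 241 and 275 CPM, with a ratio whose interval of 0.738 to 1.04 included 1.

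The tenocytes were not uniform, and one difference among them is described here. On one side were cells with Col22a1, a fibril-associated collagen known from the junction of tendon with muscle; it was at 119.9 CPM over all tenocytes, 39.7 CPM in fibroblasts, and 344 CPM in osteoblasts. On the other were cells with Chad, a leucine-rich protein of cartilage. With a minimum of 2 UMIs for either gene, chosen after the values were seen, 11 tenocytes held Col22a1, 32 held Chad, none held both, and 29 held neither. With a minimum of 1 UMI, 1 cell held both, 10 held Col22a1 alone, and 32 held Chad alone. The sets had similar depth, with medians of 10262 and 9870.5 UMIs per cell, and no test was made between sets that were defined by the cells' own transcripts. All further genes named for these sets were also chosen after their values were seen.

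**Figure D4:**
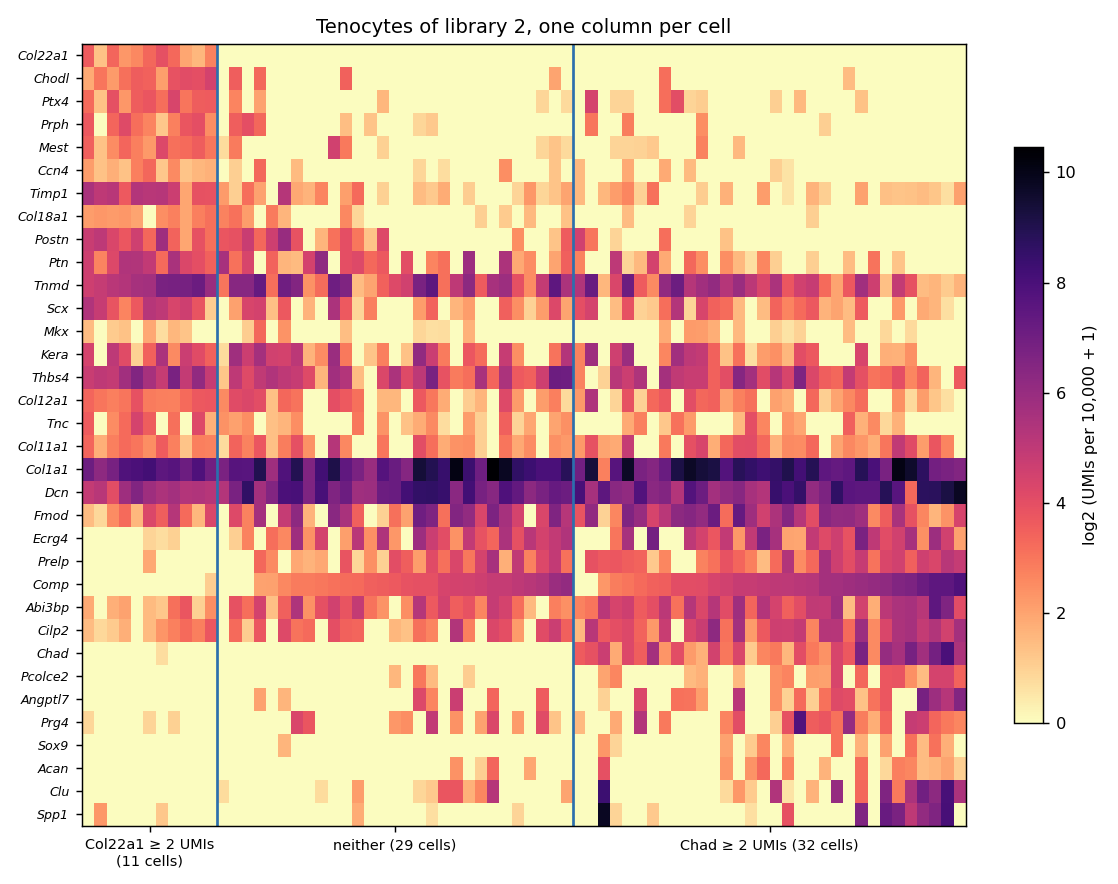
The 72 tenocytes of library 2, one column per cell, with color for log2 of UMIs per 10000 plus 1, grouped as 11 cells with at least 2 Col22a1 UMIs (left), 29 with neither (middle), and 32 with at least 2 Chad UMIs (right), and ordered by Comp within each group. Chodl, Ptx4, Mest, and Timp1 fill the left columns, and Comp is nearly empty there. Angptl7, Sox9, Acan, and Clu are empty on the left and are found in 20, 13, 14, and 16 of the 32 right columns.

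Cells with Col22a1 held most of the Chodl, Ptx4, and Prph UMIs of the library's tenocytes. Chodl ranged from 2.59 to 21.3 per 10000 in these 11 cells with a median of 10, and its median was 0 in the other sets. All 11 held Chodl, against 2 of the 32 Chad cells and 4 of the 29 others. Ptx4 was likewise present in 11 of 11, at 946 CPM against 63.8 CPM in the Chad set, and Prph in 10 of 11, at 794 and 41.4 CPM. The imprinted gene Mest (828 and 31.9 CPM), the matricellular proteins Postn (2146 and 70.1 CPM) and Ccn4 (321 and 31.9 CPM), the protease inhibitor Timp1 (2721 and 153 CPM), the basement membrane collagen Col18a1 (406 and 12.8 CPM), and Etv4, a target of growth factor signaling (211 and 9.56 CPM), followed the same order. Mstn was present in 5 of these 11 cells, in 2 of the Chad set and in 3 of the others. The rule genes Scx (2121 and 475 CPM), Tnmd (6784 and 2713 CPM), and Thbs4 (4867 and 2197 CPM) were higher in this set as well.

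Cells with Chad had more Comp, Clu, and Prg4 than cells with Col22a1. For Comp, the median was 30.4 per 10000 in the 32 cells (0 to 234), 11.6 in the 29 cells with neither gene, and 0 in the Col22a1 set, where a single UMI was found among 118359. The Chad set held 1880 Comp UMIs, or 5994 CPM. Clu (4320 CPM), the angiopoietin-like protein Angptl7 (1518 CPM), Acan (265 CPM), Sox9 (185 CPM), and the procollagen processing enhancer Pcolce2 (564 CPM) had no UMI in the Col22a1 set. Prg4 was at 1619.6 CPM in the Chad set, with a median of 5.31 per 10000 (0 to 222), and had 3 UMIs in the Col22a1 set. Abi3bp, a matrix protein, was at 3587 and 296 CPM, Cilp2 at 2490 and 372 CPM, Dcn at 23363 and 4554 CPM, and the rule gene Fmod at 4138 and 1005 CPM. Acan and Sox9 were nevertheless found in 14 and 13 of the 32 cells only, and Clu in 16.

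Several of these levels came largely from cells near the Tnmd limit. Of the 32 Chad cells, 7 had 2 or 3 Tnmd UMIs, and none of the Col22a1 set had so few. These 7 cells (21.9%), the highest Spp1 cell among them, held 90.8% of the set's Clu UMIs, 83.9% of its Spp1, 81.9% of its Angptl7, 61.6% of its Pcolce2, 61.1% of its Chad, 57.1% of its Comp, and 51.7% of its Sox9, but 30.1% of its Cilp2, 14.8% of its Prg4, and 7.32% of its Fmod. In the 25 cells with at least 4 Tnmd UMIs, a limit chosen after the values were seen, Clu was at 541 CPM, Angptl7 at 372 CPM, Pcolce2 at 294 CPM, Acan at 242 CPM, and Sox9 at 121 CPM, and Clu was found in 9 cells, Acan in 8, and Sox9 in 7. Comp was at 3490.4 CPM in 23 of these 25 cells, Cilp2 at 2362 CPM, Prg4 at 1873 CPM, and Fmod at 5203 CPM. Each of these 9 genes kept its order against the Col22a1 set, while the levels of Clu and Angptl7 were much smaller than over all 32 cells.

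The 29 cells with neither gene did not form a uniform group. Postn (799.5 CPM) and Ptn (1564 CPM), a heparin-binding growth factor, were found in 16 and 21 of them and lay between the levels of the other sets. Comp was found in 26 of them and at 1834 CPM also lay between. Lum, at 1837 CPM, and Col3a1, at 13991 CPM, were higher in these cells than in either other set (296 and 414 CPM for Lum, 2813 and 7116 CPM for Col3a1). Across all 72 cells, with cells of 1 library as the points, Spearman's rho with Col22a1 was 0.77 for Chodl, 0.68 for Mest, 0.66 for Ptx4, and -0.57 for Comp, and with Chad it was 0.57 for Cilp2 and 0.51 for Comp. These values share library and depth and are a description.

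Both sets held cells with Xist, cells with Y-linked transcripts, and cells with and without tdTomato. The Col22a1 set held 1 cell with Xist alone, 3 with Y-linked transcripts alone, and 7 with neither. The Chad set held 16, 5, and 8 such cells, and 3 with both. Cells with tdTomato numbered 6 of 11 and 18 of 32. The clusters made without rule genes did not part them: at a resolution of 0.8 the leading cluster held 11 of 11 Col22a1 cells, 29 of 32 Chad cells, and 21 of 29 others.

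The 2 tenocytes of library 1 differed in several of these genes. One cell, with 9062 UMIs, held 35 Tnmd, 67 Fmod, 83 Thbs4, 26 Kera, and 6 Scx UMIs together with 4 of Col22a1, 5 of Chodl, 25 of Postn, 1 of Comp, and none of Chad. The other, with 18083 UMIs, held 19 Tnmd and 29 Fmod UMIs, none of Scx or Kera, and 49 of Comp, 20 of Prg4, 1 of Chad, and none of Col22a1, Chodl, or Postn. Its single Chad UMI is below the minimum used for library 2. Other genes did not follow the order of library 2: the first cell held more Cilp2 (14 UMIs against 2), more Fmod, and at its lower depth more Dcn (57 against 53), all of which were higher in the Chad set there. With only 2 cells, these values stand beside those of library 2 and carry no estimate of spread.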

How the data were processed

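Single-cell RNA-Seq of periosteal cells was deposited by the authors as 1 gene-by-barcode table of raw UMI counts per library, made per the file headers with Cell Ranger 6.1.2 and, per the labels, on mm10, with 3 reporter sequences beside 32285 mouse genes. Barcodes with at least 500 genes, at least 500 UMIs, and at most 10% mitochondrial UMIs were kept, as in the methods of the study. The kept cells of libraries 1 and 2 held 92058894 and 30745895 UMIs. The selection rule, the 24 gene lists, and the alternatives were chosen with earlier results of these data known.

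Counts were summed over the cells of a group and divided by the group's total (CPM). Levels carry exact Poisson intervals and ratios exact conditional binomial intervals (95%, SciPy 1.17.1), which cover counting error only. A group under 3 UMIs was set at 3. Genes at a mean of 20 CPM were measured, and a ratio of 4 in either direction was counted. The text names genes of the lists, the 15 highest and 10 lowest ratios among counted genes present in at least 20% of the higher group, and the 10 most abundant genes. Clusters used Scanpy 1.11.5 with 3000 variable genes, 15 components, and 15 neighbors. Scrublet called 1 of the 2893 kept cells of library 2 (0.0346%), which was taken as a failed call, so doublets stayed in. Alternatives used edgeR 4.0.16 for TMM scaling. Gene positions are those of GENCODE on GRCm38.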

Additional observations from a re-analysis of the deposited data

Results flagged for a closer look

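Transcripts of 2 reporters, which the labels do not mention, were found among the tenocytes of library 2. These sequences took no part in the comparisons above. tdTomato stood at 368 CPM (325 to 417), with 255 UMIs in 32 of 72 cells (44.4%), and 16 cells held 2 or more. Fibroblasts had 467 CPM, osteoblasts 232 CPM, chondrocytes 165 CPM, and B cells 45.1 CPM. EGFP stood at 50.6 CPM (35.2 to 70.3), with 35 UMIs in 5 cells, all of which also held tdTomato, and 1 cell held 23 of them; fibroblasts had 6.79 CPM and B cells 2.24 CPM, while chondrocytes had 905 CPM (89 of 279 cells) and osteoblasts 414 CPM (23 of 84). In library 1 neither tenocyte held a reporter UMI. With reporter cells left out of both groups, an alternative chosen after seeing the data, 79 genes were at least 4-fold higher and 140 at least 4-fold lower, of which 56 and 92 were shared with those counted above.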

How the results depend on the processing

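The number of tenocytes in library 2 was 55 to 79 under the other selection rules (18 to 40 where cells were left out by sex genes, reporters, or foreign transcripts), and the counts of 73 higher and 128 lower genes stayed within 1.5 times except where the threshold itself moved. At a mean of 5 CPM or more they were 198 and 229, at 50 CPM or more 36 and 50, and at 8-fold 37 and 59. TMM and median-of-ratios scaling moved the median log2 ratio of all measured genes from -0.11 to -0.02 and -0.01, and gave 80 and 110 and 80 and 107 genes. Without the highest cell of each gene in each group, chosen after seeing the data, 52 and 138 genes were past 4-fold, and 50 of the 73 and 105 of the 128 stayed past it; Comp, Thbs2, Cilp, Inhba, and Lyz2 then had ratios of 3.93, 3.94, 3.28, 3.47, and 2.89. Of the 201 genes, 184 to 201 kept their direction; no fold was given where both groups were at or under 3 UMIs, or where a group set at 3 UMIs came out the higher one (up to 13 of the 201). With cells that held Xist and no Y-linked UMIs, 40 of the 73 and 81 of the 128 stayed past 4-fold, and with cells that held Y-linked UMIs and no Xist (18 and 75 cells) 52 and 56. With at least 4 Tnmd UMIs Comp, Cilp, Inhba, and Clu were at 2.57, 2.54, 2.55, and 1.89. Several named ratios turned. With cells that held Y-linked UMIs and no Xist, those of Hbb-bt and Tagln were 2.06 and 0.596. Without cells holding 2 or more UMIs of Hbb-bs, Cd79a, Acta1, or S100a8, a limit that caps Hbb-bs itself, those of Bglap, Col9a3, and Hba-a1 were 1.18, 2.4, and 1.26. With at least 6 of the 7 fibroblast genes, Prg4 was at 1.16, and with fibroblasts free of Pi16 and Dpp4, those genes were at 10.6 and 4.7 by construction. The causes of the other turns were not tested. Across all alternatives Cilp2 ranged from 9.26 to 131, Ptx4 from 39.2 to 226, Chad from 4.66 to 693, and Clu from 1.89 to 90.2. Because library 1 held 2 tenocytes, no analysis of tenocytes and fibroblasts paired by library was made, and leaving out a replicate gave no second value. At 692172 UMIs, a gene without a UMI in tenocytes may, by a limit of 3 UMIs, be at up to 4.33 CPM.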
